A study of Homo sapiens with 10 samples.

Results

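Caveolae are flask-shaped pits of the plasma membrane, and their coat was described here through 5 genes, CAV1, CAV2, CAVIN1, CAVIN3 and EHD2, of the 60623 gene IDs counted in each library. CAV1 was chosen by its log2 fold changes after the 2 knockdowns of the study, which had opposite signs, and the other 4 were listed beside it for their function. The values of CAV1 in those comparisons are therefore given as a description, with no test. All 5 genes passed the filter on low counts that left 18450 genes for testing.

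The mRNA of A375, a human melanoma line, was sequenced after transfection with siRNA (small interfering RNA) that targets PHF10 or MYC, in 2 experiments that each had their own controls. PHF10 is a subunit of PBAF, a chromatin remodelling complex, and MYC is a transcription factor. There were 4 libraries of PHF10 knockdown cells and 2 of their controls in experiment 1. The titles of the PHF10 knockdown libraries carry the word total, whose meaning the labels do not give. Experiment 2 gave 2 libraries whose labels state a MYC knockdown, called MYC-labelled libraries here, and 2 of their controls. All cells were taken 72 h after transfection. The protocol gives the controls a control siRNA while their treatment field gives none, and the labels do not say that replicates came from separate cultures. The p-values therefore measure the spread between these libraries, which may be technical.

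Caveolin-1, the product of CAV1, inserts into the inner leaflet of the membrane, binds cholesterol and forms the oligomers on which a caveola is built. Cavin-1, the product of CAVIN1, is recruited from the cytosol and is needed with caveolin-1 for the pit to form. Caveolin-2 joins caveolin-1 in mixed oligomers, cavin-3 joins the cavin coat, and EHD2 is an ATPase that sits at the neck and holds caveolae at the surface. Caveolae flatten when membranes are stretched, and the coat is abundant in endothelial cells, adipocytes and fibroblasts.

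CAV1 (ENSG00000105974) lies on the plus strand of chromosome 7 at 116524785 to 116561184 (GRCh38, GENCODE release 29). CAV2 (ENSG00000105971) lies upstream of it on the same strand at 116287380 to 116508541, which leaves 16.2 kb between the 2 genes. CAVIN1 (ENSG00000177469) is on the minus strand of chromosome 17 at 42402452 to 42423517. CAVIN3 (ENSG00000170955) is on the minus strand of chromosome 11 at 6318946 to 6320647, and EHD2 (ENSG00000024422) on the plus strand of chromosome 19 at 47713343 to 47743134. Genes that overlap a member held at most 33 reads in any library, the highest being an unnamed transcript on the opposite strand of CAVIN3. The RefSeq promoter table of GRCh38.p14 held 3 of the 5 genes. The 250 bases before the first listed start of CAV1, CAV2 and EHD2 are shown so that the neighbouring genes CAV1 and CAV2, whose values are set side by side here, can be compared. Lines run 5′ to 3′ on the plus strand, and capitals mark each GC box, GGGCGG on either strand, the motif bound by SP1.
CAV1, chr7:116524759-116525008: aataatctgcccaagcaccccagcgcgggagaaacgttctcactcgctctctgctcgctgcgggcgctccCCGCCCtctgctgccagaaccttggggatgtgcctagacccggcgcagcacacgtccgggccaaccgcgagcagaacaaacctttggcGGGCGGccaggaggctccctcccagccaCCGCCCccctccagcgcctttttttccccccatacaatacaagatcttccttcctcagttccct
CAV2, chr7:116499488-116499737: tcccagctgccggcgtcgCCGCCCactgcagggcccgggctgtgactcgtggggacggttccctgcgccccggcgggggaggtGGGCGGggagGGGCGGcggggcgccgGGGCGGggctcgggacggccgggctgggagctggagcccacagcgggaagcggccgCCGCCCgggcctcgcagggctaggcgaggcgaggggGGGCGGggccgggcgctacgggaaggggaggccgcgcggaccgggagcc
EHD2, chr19:47713172-47713421: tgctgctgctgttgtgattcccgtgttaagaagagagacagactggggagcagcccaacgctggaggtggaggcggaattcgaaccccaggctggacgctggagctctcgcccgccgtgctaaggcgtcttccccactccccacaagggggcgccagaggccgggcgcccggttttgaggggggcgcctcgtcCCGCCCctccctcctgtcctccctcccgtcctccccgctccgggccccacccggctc

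The CAV1 window held 3 GC boxes, the CAV2 window 6 and the EHD2 window 1, and GC boxes were in 42.6% of the 35116 promoters of the table in windows of the same length. The CAV2 window had a GC content of 83.2%, against 69.6% for EHD2 and 63.6% for CAV1. The E-box CACGTG, which MYC can bind, was found in none of the 6 windows listed for the 3 genes and in 6.34% of all promoters. The TEAD motif CATTCC (11.9% of all promoters) and the AP-1 motif TGACTCA (4.2%), searched on both strands, were also in none of the 6 windows. No motif overlapped another kind of motif in these windows, and a match or its lack is a description of these letters and no evidence on binding.

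Reads assigned to genes were 20.47 to 26.98 M per library in experiment 1 and 30.01 to 38.37 M in experiment 2. The common biological coefficient of variation between replicates was 26.69% in experiment 1 alone, 3.387% in experiment 2 alone and 21.44% in the fit of all 10 libraries. The tests used a spread estimated for each gene, which the 4 groups shared. PHF10 mRNA was at 16.1, 18.0, 15.0 and 15.7 CPM (counts scaled to library size, in units of 1e6 reads) in the PHF10 knockdown libraries and at 40.1 and 36.6 CPM in their controls. In experiment 2 PHF10 mRNA was higher, at 124 and 119 CPM in the MYC-labelled libraries and at 124 and 125 CPM in their controls. MYC mRNA was at 16.7 and 13.3 CPM in the MYC-labelled libraries and at 15.0 and 26.5 CPM in their controls, so that it did not separate these groups, and directions in experiment 2 rest on the labels. Its log2 fold change there was −0.465 (edgeR adjusted p = 0.688). In experiment 1 MYC mRNA averaged 14.8 CPM in the PHF10 knockdown libraries and 26.2 CPM in their controls, and these groups overlapped too. The log2 fold change of MYC after PHF10 knockdown was larger, at −0.823 (edgeR unadjusted p = 0.0322, adjusted p = 0.174). Of the melanoma lineage markers SOX10 was at 528 to 948 CPM in all 10 libraries, while the pigment cell genes MLANA and TYR were at or near 0.

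Compared per kb of exon, CAVIN1 had the highest level of the 5 genes in every library and CAV2 the lowest. In CPM per kb, CAVIN1 averaged 84.8 ± 7.91 in PHF10 knockdown and 82.7 ± 7.23 in its controls, and 64.8 ± 3.09 in the MYC-labelled libraries and 107 ± 1.25 in their controls (SD, n = 4, 2, 2 and 2). CAV2 averaged 1.89 ± 0.459 and 1.68 ± 0.209 CPM per kb in the PHF10 knockdown and its controls. The CAV2 level per kb depends on a gene model that begins well upstream of the first RefSeq start and may understate it.
The order of the other 3 genes differed between the experiments. In the PHF10 knockdown CAVIN3 (24.6 ± 8.05 CPM per kb), EHD2 (23.2 ± 4.98) and CAV1 (21.1 ± 4.28) lay within one SD of each other. In the controls of experiment 1 CAV1, at 13.3 ± 0.828 CPM per kb, lay below EHD2 (18.1 ± 2.29) without overlap, and EHD2 overlapped CAVIN3 (21.9 ± 5.61). In the MYC-labelled libraries CAVIN3 was at 49.8 ± 0.112, EHD2 at 12.7 ± 1.49 and CAV1 at 5.15 ± 0.144 CPM per kb, without overlap. In the controls of experiment 2 CAVIN3 was at 45.3 ± 1.09, CAV1 at 14.6 ± 0.232 and EHD2 at 12.8 ± 0.845 CPM per kb.

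**Figure D1:**
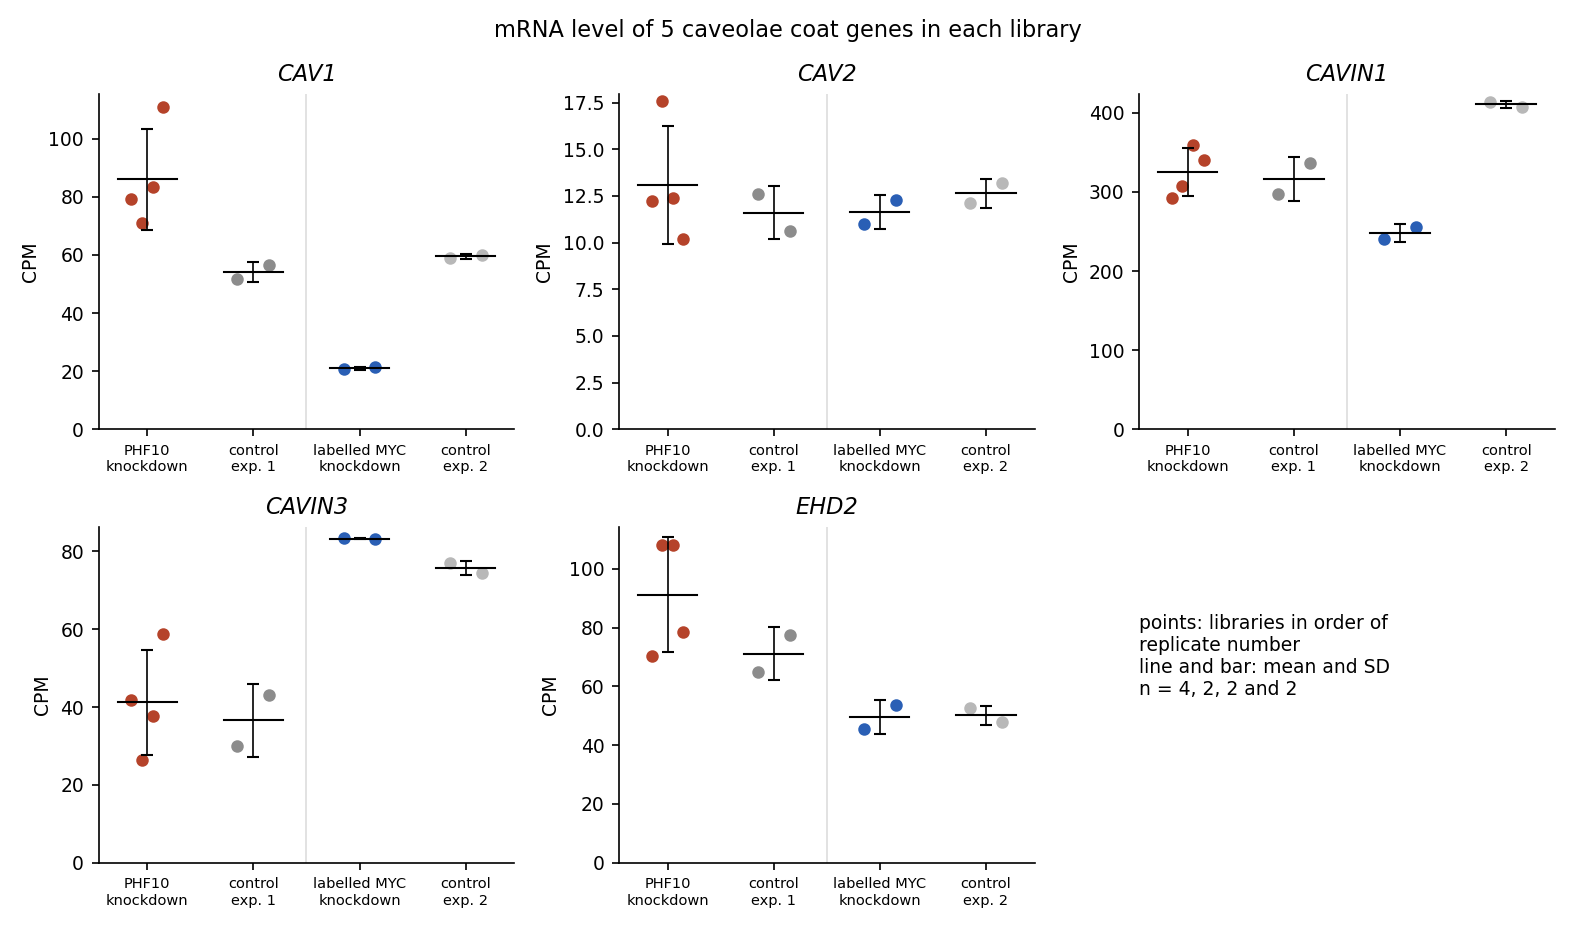
Level of each coat gene in CPM (vertical axis, from 0) in each library, by group, with the group mean and SD. CAV1 stands above its controls in all 4 PHF10 knockdown libraries and below its controls in both MYC-labelled libraries, while CAV2 overlaps its controls in both experiments.

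CAV1, the structural core of the coat, was higher than its controls in every PHF10 knockdown library and lower than its controls in both MYC-labelled libraries. It was at 79.1, 71.0, 83.3 and 111 CPM in the PHF10 knockdown libraries and at 51.8 and 56.6 CPM in their controls. The groups did not overlap, and the log2 fold change was 0.67 ± 0.17 (SE of the fit), or 1.59-fold. CAV1 was at 20.6 and 21.4 CPM in the MYC-labelled libraries and at 58.8 and 60.1 CPM in their controls. Again the groups did not overlap, and the log2 fold change was −1.50 ± 0.19, or 2.83-fold lower. The fold change after PHF10 knockdown minus that in the MYC-labelled libraries was 2.17 ± 0.25 on the log2 scale. Of all genes, 5.09% lay on opposite sides of their controls without overlap in both experiments. In bulk RNA, fewer cells with a transcript and less transcript per cell cannot be told apart. Between the control groups CAV1 did not pass the test, and the controls of experiment 2 minus those of experiment 1 gave a log2 fold change of 0.13 ± 0.19 (95% interval −0.29 to 0.55, edgeR quasi-likelihood adjusted p = 0.68). This comparison was not used to choose CAV1.

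The CAV1 level varied more among the PHF10 knockdown libraries than in any other group, and replicate 4 was the highest. The mean log2 CPM of 43 interferon-response genes stood at 7.75, 7.46, 3.81 and 5.02 for replicates 1 to 4 of the PHF10 knockdown and at 8.10 and 4.89 for controls 1 and 2 of experiment 1, so libraries of both groups stood apart in this response. Of these genes 0 passed in either knockdown with edgeR, DESeq2 or limma-voom. Of all genes 6.34%, 11.8% and 5.9% passed with these tools after PHF10 knockdown, and 0.493%, 3.91% and 1.14% in the MYC-labelled libraries. At an unadjusted p under 0.05 edgeR gave 1 of the 43 after PHF10 knockdown and 0 in the MYC-labelled libraries, where 22.7% and 13.2% of all genes were. The median log2 fold change of the 43 after PHF10 knockdown was −0.358, and it ran from −1.189 to 2.035 with 1 library left out. Under 3 of 20 alternatives some passed there, at most 19, and no share of all genes is given here for those. With experiment 2 fitted alone 11 fell and 6 rose, where 22.6% of all genes fell and 21.9% rose. Between the libraries with a strong response, CAV1 averaged 75.0 CPM in 2 PHF10 knockdown libraries and was 51.8 CPM in 1 control, a log2 ratio of 0.53. Between those with a weaker response, it averaged 97.3 CPM in 2 PHF10 knockdown libraries and was 56.6 CPM in 1 control, a log2 ratio of 0.78. These values belong to the gene chosen for its level, each rests on 1 control, and the part of the interferon response in them was not tested. The corresponding log2 ratios were 0.24 and 0.09 for CAV2, 0.01 and 0.06 for CAVIN1, 0.19 and 0.16 for CAVIN3, and 0.46 and 0.27 for EHD2.

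CAV2, the caveolin that accompanies CAV1 in mixed oligomers and lies next to it in the genome, did not pass the test in either knockdown. It was at 12.2, 17.6, 12.4 and 10.2 CPM in the PHF10 knockdown libraries and at 12.6 and 10.6 CPM in their controls. The groups overlapped, with replicate 2 of the knockdown the highest, and the log2 fold change was 0.18 ± 0.21 (95% interval −0.29 to 0.64, edgeR adjusted p = 0.673). CAV2 was at 11.0 and 12.3 CPM in the MYC-labelled libraries and at 12.1 and 13.2 CPM in their controls, which overlapped too. The log2 fold change there was −0.12 ± 0.23 (95% interval −0.65 to 0.40, edgeR adjusted p = 0.888). The interval after PHF10 knockdown reaches nearly to the CAV1 value of 0.67, and the interval in the MYC-labelled libraries stops short of the CAV1 value of −1.50. CAV1 was chosen by these values, which have an error of their own, so a difference between CAV2 and CAV1 was not tested.

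CAVIN1, the cavin needed for caveola formation, was at 292, 308, 359 and 340 CPM in the PHF10 knockdown libraries and at 297 and 336 CPM in their controls. The ranges overlapped, and the log2 fold change was 0.04 ± 0.12 (95% interval −0.24 to 0.32, edgeR adjusted p = 0.902). CAVIN1 was at 240 and 256 CPM in the MYC-labelled libraries and at 414 and 407 CPM in their controls. Both MYC-labelled libraries lay below both controls, the same side as for CAV1. The log2 fold change of −0.73 ± 0.14 (95% interval −1.05 to −0.40) did not pass the threshold over all genes in the fit of all libraries (edgeR adjusted p = 0.0638). It passed with the spread of experiment 2 alone (log2 fold change −0.72, edgeR adjusted p = 3.08e-20), where 44.5% of all genes did, and with DESeq2 (adjusted p = 2.8e-05), where 3.91% did. The difference between the CAVIN1 responses to the 2 knockdowns was 0.76 ± 0.19 on the log2 scale (edgeR adjusted p = 0.125).

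CAVIN3, whose product binds cavin-1 and protein kinase C delta, overlapped its controls after PHF10 knockdown. It was at 41.8, 26.5, 37.6 and 58.9 CPM in the knockdown libraries and at 30.0 and 43.2 CPM in their controls, a log2 fold change of 0.17 ± 0.27 (95% interval −0.43 to 0.77, edgeR adjusted p = 0.763). In experiment 2 it was at 83.4 and 83.2 CPM in the MYC-labelled libraries and at 77.0 and 74.4 CPM in their controls. The groups did not overlap, but the log2 fold change was small, 0.14 ± 0.30 (95% interval −0.54 to 0.81, edgeR adjusted p = 0.903). It was on the opposite side from CAV1 and CAVIN1, and with experiment 2 fitted alone its adjusted p was 0.00921.

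EHD2, the ATPase of the caveolar neck, was at 70.3, 108, 108 and 78.6 CPM in the PHF10 knockdown libraries and at 64.8 and 77.5 CPM in their controls. One control lay inside the range of the knockdown, and the log2 fold change was 0.36 ± 0.19 (95% interval −0.07 to 0.79, edgeR adjusted p = 0.305). EHD2 was at 45.5 and 53.8 CPM in the MYC-labelled libraries and at 52.5 and 47.8 CPM in their controls. The groups overlapped, and the log2 fold change was −0.01 ± 0.22 (95% interval −0.50 to 0.47, edgeR adjusted p = 0.989).

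Beyond CAV1, 0 of the other 4 coat genes passed the threshold after PHF10 knockdown with edgeR, where 6.34% of all genes did, and 0 of them had an unadjusted p under 0.05 (22.7% of all genes) or passed with DESeq2 or limma-voom, where 11.8% and 5.9% of all genes passed. In the MYC-labelled libraries 0 of the 4 passed with edgeR, where 0.493% of all genes did. CAVIN1 was the 1 of the 4 with an unadjusted p under 0.05 there (13.2% of all genes), and the 1 that passed with DESeq2 and with limma-voom (1.14% of all genes). Values of 0 of the 4 were free of overlap with the controls after PHF10 knockdown, where 27.2% of all genes were, and of 2 of the 4 in the MYC-labelled libraries, where 69.7% of all genes were. For the difference between the responses to the 2 knockdowns, 0 of the 4 passed with edgeR (0.385% of all genes), 1 had an unadjusted p under 0.05 (11.7%) and 1, CAVIN1, passed with DESeq2 (3.43%), while 0 passed with limma-voom (0.314%).

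**Figure D2:**
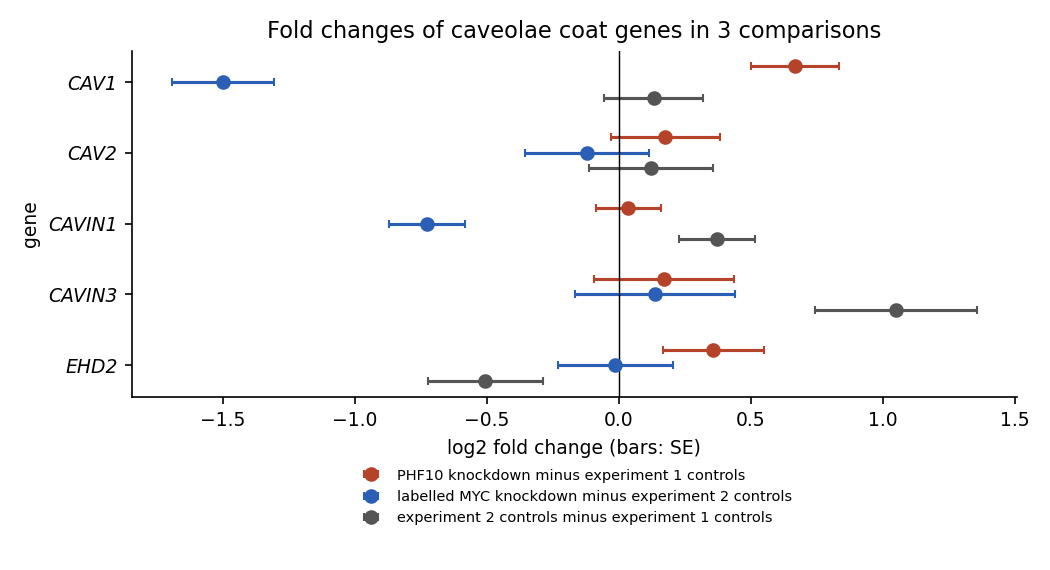
Log2 fold change of each coat gene (horizontal axis, bars are the SE of the fit) in 3 comparisons, which share libraries where they share a control group. CAV1 lies at 0.67 after PHF10 knockdown and at −1.50 in the MYC-labelled libraries, and CAVIN3 is the highest in the comparison of the control groups, at 1.05.

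**Figure D3:**
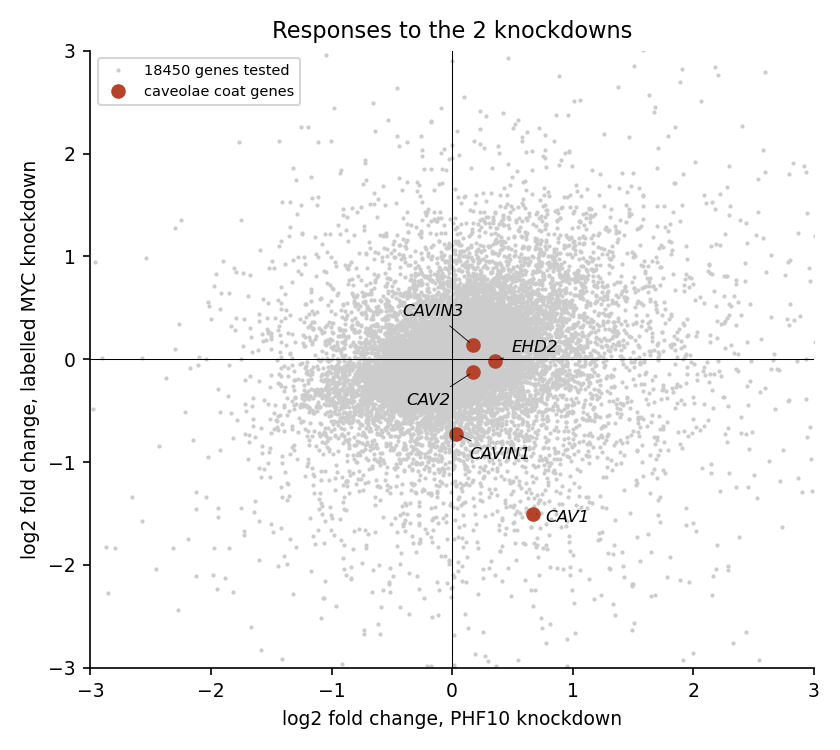
Log2 fold change after PHF10 knockdown (horizontal axis) against that in the MYC-labelled libraries (vertical axis) for the 18450 genes tested, with 135 genes outside the axes. CAV1 lies to the lower right, CAVIN1 at −0.73 on the vertical axis, and CAV2, CAVIN3 and EHD2 nearer the centre.

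The balance between CAVIN1 and CAV1 differed between the groups. The ratio of CAVIN1 to CAV1, in CPM per kb of exon, was 3.94, 4.62, 4.59 and 3.26 in the PHF10 knockdown libraries, against 6.11 and 6.33 in their controls. It was 12.4 and 12.8 in the MYC-labelled libraries and 7.50 and 7.22 in their controls. Neither experiment showed overlap, with low ratios after PHF10 knockdown and high ratios in the MYC-labelled libraries. The ratio of CAV1 to CAV2 was 11.0, 6.83, 11.4 and 18.5 in the PHF10 knockdown libraries, against 6.96 and 9.07 in their controls, which overlapped. It was 3.18 and 2.97 in the MYC-labelled libraries and 8.22 and 7.75 in their controls, which did not. These ratios contain the CAV1 values by which the gene was chosen and were not tested.

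**Figure D4:**
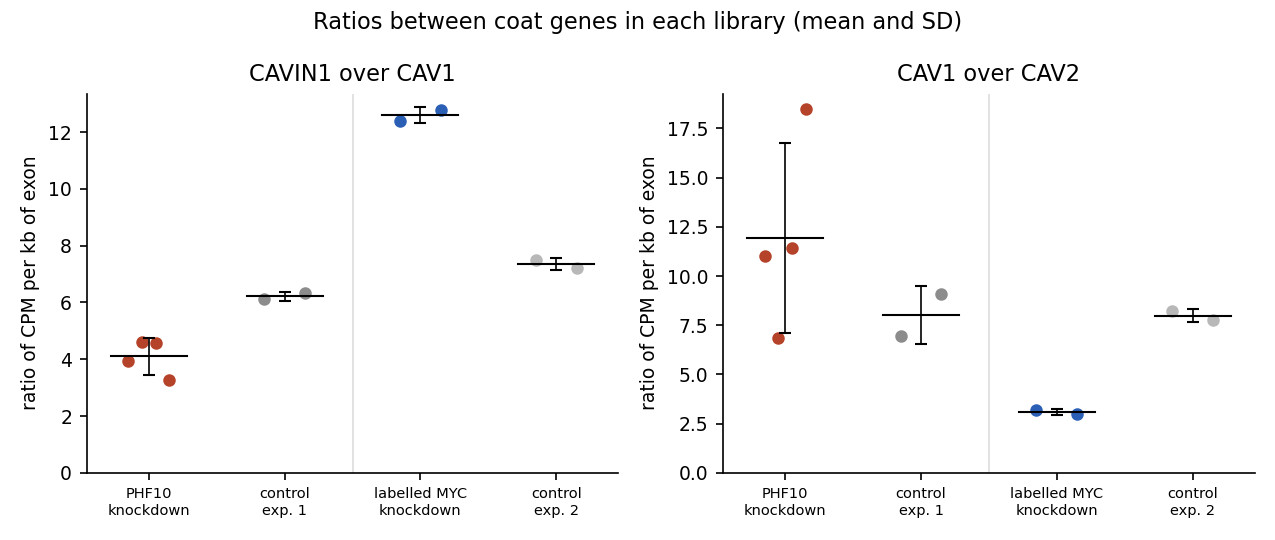
Ratios of CAVIN1 to CAV1 (left) and of CAV1 to CAV2 (right) in CPM per kb of exon in each library, with group mean and SD. CAVIN1 over CAV1 averages 4.10 in PHF10 knockdown and 6.22 in its controls, and 12.6 in the MYC-labelled libraries and 7.36 in their controls.

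The controls of the 2 experiments differed for part of the coat. CAVIN3 was higher in the controls of experiment 2, at 77.0 and 74.4 CPM, than in those of experiment 1, at 30.0 and 43.2 CPM, a log2 fold change of 1.05 ± 0.31 (95% interval 0.36 to 1.74, edgeR adjusted p = 0.0482). CAVIN1 was at 414 and 407 CPM in the controls of experiment 2 and at 297 and 336 CPM in those of experiment 1, with a log2 fold change of 0.37 ± 0.14 (edgeR adjusted p = 0.113). EHD2 had a log2 fold change of −0.51 ± 0.22 (edgeR adjusted p = 0.153) and CAV2 of 0.12 (edgeR adjusted p = 0.766). With edgeR, 1 of the 5 coat genes passed, where 14.6% of all genes did, and 4 of the 5 did not overlap between the control groups, where 68.0% of all genes did not. The CAVIN3 call did not hold when either control of experiment 1 was left out (log2 fold change 0.82, adjusted p = 0.257, without replicate 1 and 1.35, adjusted p = 0.0693, without replicate 2). It was also lost without PHF10 knockdown replicate 3 (adjusted p = 0.0571) and without any one library of experiment 2 (adjusted p = 0.0791 to 0.19). The control groups share libraries with both knockdown comparisons, and an experiment cannot be told apart here from the culture it was run on.

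Of 10 genes in the region of CAV1 on chromosome 7, CAV1 included, 7 were tested. After PHF10 knockdown MET, the receptor of hepatocyte growth factor, 111 kb downstream of CAV1, rose. MET was at 255, 224, 170 and 194 CPM in the PHF10 knockdown libraries and at 108 and 93.6 CPM in their controls, a log2 fold change of 1.06 ± 0.17 (edgeR adjusted p = 0.00813). All 4 knockdown libraries lay above both controls. Its adjusted p was 0.0752 with experiment 1 fitted alone, where 0.28% of all genes passed, 0.0516 without control 1 and 0.09 without control 2. In experiment 2 MET was at 188 and 176 CPM in the MYC-labelled libraries and at 177 and 178 CPM in their controls, a log2 fold change of 0.03 (edgeR adjusted p = 0.965), and the groups overlapped. The difference between these responses of MET was 1.03 on the log2 scale (edgeR adjusted p = 0.102).
TES, a focal adhesion protein gene 266 kb upstream, had log2 fold changes of 0.09 after PHF10 knockdown and −0.39 in the MYC-labelled libraries (edgeR adjusted p = 0.438 for the second). CAPZA2, an actin capping subunit gene, had 0.12 and 0.05, and ST7 had 0.14 and −0.19. TFEC, a MITF family gene counted at under 3 CPM in every library, had 0.19 and −2.87 (edgeR adjusted p = 0.246 for the second). All 7 tested genes, CAV1 included, had positive values after PHF10 knockdown, and all 7 also did in experiment 2 controls minus experiment 1 controls. In the MYC-labelled libraries 2 of the 7 were positive and 5 negative. The median after PHF10 knockdown, which is the value of CAV2, was 0.18 on the log2 scale against 0.02 over all genes. These counts and the median include CAV1, chosen for its value, and a change of the whole region was not tested.

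**Figure D5:**
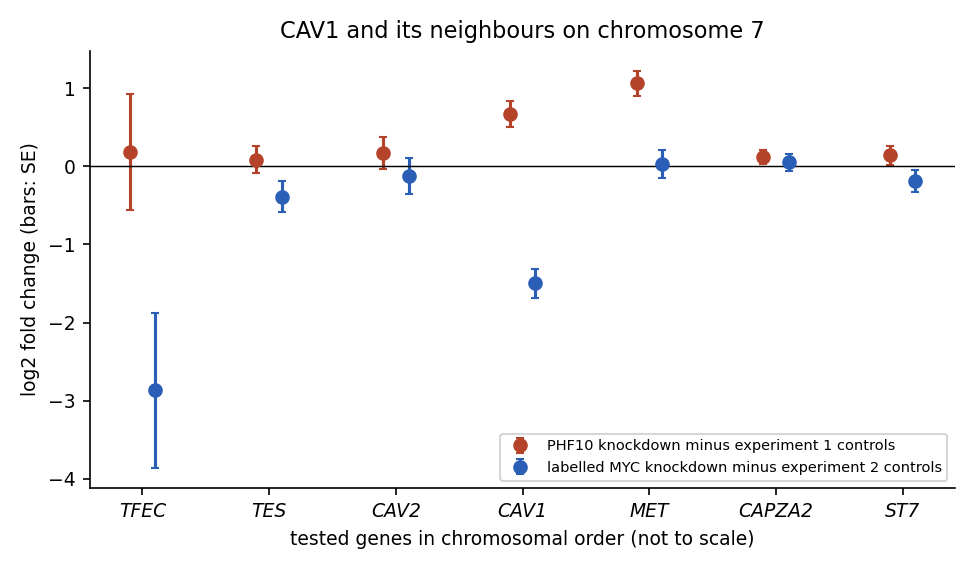
Log2 fold change (vertical axis, bars are the SE of the fit) of CAV1 and the 6 other tested genes of its region, in chromosomal order and not to scale. MET lies at 1.06 after PHF10 knockdown and at 0.03 in the MYC-labelled libraries, where CAV1 lies at −1.50.

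Other proteins of caveolae were read from a list of 11 genes, of which 8 were tested. CAV3, the muscle caveolin, had 0 reads in every library, and CAVIN2 and PACSIN1 were near 0. With edgeR 0 of the 8 passed after either knockdown, and their median log2 fold change was −0.13 after PHF10 knockdown, against 0.02 over all genes, and −0.14 in the MYC-labelled libraries, against −0.01 over all genes. PACSIN2, a membrane-bending protein of the caveolar neck, was at 48.8, 35.2, 46.8 and 54.0 CPM in the PHF10 knockdown libraries and at 62.1 and 63.4 CPM in their controls, without overlap (log2 fold change −0.44, edgeR adjusted p = 0.113). FLNA, the actin crosslinker that ties caveolae to stress fibres, was at 1260 and 1340 CPM in the MYC-labelled libraries and at 1900 and 1910 CPM in their controls (a log2 fold change of −0.55, edgeR adjusted p = 0.249). EHD4, a relative of EHD2, was at 62.2 and 64.8 CPM in the MYC-labelled libraries and at 124 and 125 CPM in their controls (a log2 fold change of −0.97, edgeR adjusted p = 0.333). EHD3 had a log2 fold change of −0.54 there (edgeR adjusted p = 0.36). At an unadjusted p under 0.05 edgeR gave 1 of the 8 after PHF10 knockdown and 3 in the MYC-labelled libraries, DESeq2 called 0 and 1 of them, and limma-voom 0 in each. Over all genes the shares were 22.7% and 13.2% at an unadjusted p, 11.8% and 3.91% with DESeq2, and 5.9% and 1.14% with limma-voom, and the counts of the lists that follow are read against these. With experiment 2 fitted alone, 4 of the 8 fell (EHD4, FLNA, EHD3 and EHD1) and 1 rose (DNM2, the large GTPase dynamin-2), where 22.6% of all genes fell and 21.9% rose.

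Genes of other routes into the cell were read beside the coat. Of 24 tested genes of the clathrin coat and its adaptors, 2 rose and 1 fell after PHF10 knockdown with edgeR, where 2.75% of all genes rose and 3.58% fell. The scaffold ITSN2 rose, at 91.2, 84.8, 76.5 and 89.1 CPM in the knockdown libraries and at 60.4 and 55.7 CPM in their controls (a log2 fold change of 0.56, edgeR adjusted p = 0.0168). CLTCL1, a second clathrin heavy chain, rose (0.68, adjusted p = 0.0298) and the adaptor EPN2 fell (−0.78, adjusted p = 0.0201), and none of these 3 calls held without either control of experiment 1, with adjusted p of 0.0859 to 0.233. Of the same 24 genes 0 passed in the MYC-labelled libraries with edgeR, DESeq2 or limma-voom, and 2 had an unadjusted p under 0.05, where 0.493%, 3.91% and 1.14% of all genes passed and 13.2% had such a p. Of the 9 genes of the flotillin and endophilin routes 0 passed with edgeR in either comparison, with 3 at an unadjusted p under 0.05 after PHF10 knockdown and 2 in the MYC-labelled libraries, and DESeq2 called 1 after PHF10 knockdown. Of 11 genes whose products bind caveolin-1 or signal from caveolae, such as the kinases SRC and FYN, 0 passed in either with edgeR, DESeq2 or limma-voom and 2 in each had an unadjusted p under 0.05, with median log2 fold changes of 0.08 after PHF10 knockdown and 0.02 in the MYC-labelled libraries.

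Caveolin and cavin genes are counted among the targets of the YAP and TEAD factors in several cell types, and 22 other targets were read. After PHF10 knockdown 1 fell, RBMS3, an RNA-binding protein gene (log2 fold change −0.81, edgeR adjusted p = 0.0352, and 0.176 and 0.149 without control 1 and control 2), and 0 rose with edgeR. At an unadjusted p under 0.05 there were 4 of the 22 (22.7% of all genes), and DESeq2 and limma-voom called 2 each (11.8% and 5.9% of all genes). With no filter on low counts 6 passed. No share of all genes is given here for that setting, so this count cannot be read against one. DOCK5, a guanine nucleotide exchange factor gene, was at 233, 238, 187 and 189 CPM in the PHF10 knockdown libraries and at 159 and 126 CPM in their controls, without overlap (log2 fold change 0.57, edgeR adjusted p = 0.052). In the MYC-labelled libraries 0 passed with edgeR in the fit of all libraries, 7 had an unadjusted p under 0.05 (13.2% of all genes), and DESeq2 called 2 (3.91%) and limma-voom 0 (1.14%). With experiment 2 fitted alone 12 fell and 5 rose, where 22.6% of all genes fell and 21.9% rose. CCN1, a secreted matrix protein gene and a common readout of YAP, was at 18.7 and 21.0 CPM in the MYC-labelled libraries and at 88.7 and 84.6 CPM in their controls (a log2 fold change of −2.13, edgeR adjusted p = 0.123 in the fit of all libraries and 5.85e-33 in experiment 2 alone). It was at 124, 39.0, 44.2 and 122 CPM in the PHF10 knockdown libraries and at 69.5 and 68.7 CPM in their controls, which overlapped. Caveolae need cholesterol, and 20 genes of its synthesis and control are reported here, with median log2 fold changes of −0.15 after PHF10 knockdown and −0.17 in the MYC-labelled libraries. Of these 20 genes 0 passed in either comparison with edgeR, DESeq2 or limma-voom, and 1 in each had an unadjusted p under 0.05. With experiment 2 fitted alone, 8 of them fell and 2 rose, 10 in all, where 44.5% of all genes passed.

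Markers of cell types rich in caveolae were read beside the coat genes. The endothelial markers CLDN5 (0 in all libraries), CDH5 (under 1 CPM) and PLVAP (0 in 9 of 10 libraries) were at or near 0, and most of the summed level of the 10 endothelial markers was KDR. That sum was 13.9 to 212 CPM in the PHF10 knockdown libraries, against 67.8 and 53.3 CPM in their controls, and 35.4 and 37.8 CPM in the MYC-labelled libraries and 70.1 and 64.8 CPM in their controls. The sum of 10 fibroblast markers was 61.1 to 101 CPM in the PHF10 knockdown libraries, against 79.4 and 51.2 CPM in their controls, and 87.0 and 102 CPM in the MYC-labelled libraries and 78.8 CPM in each control. In it 2 of the 8 tested rose after PHF10 knockdown with edgeR, where 2.75% of all genes did, COL6A3 (log2 fold change 1.52, adjusted p = 0.00819) and COL3A1 (3.16, adjusted p = 0.0141, at most 3.73 CPM), and neither passed without either control of experiment 1. The sum of 6 adipocyte markers, mostly LPL, was 33.2 to 60.5 CPM in the PHF10 knockdown libraries, against 124 and 55.9 CPM in their controls, and ADIPOQ and LEP were at or near 0. The sum of 13 melanoma lineage markers, mostly SOX10 and ERBB3, was 1160 to 1580 CPM in the PHF10 knockdown libraries. It was 2040 and 2130 CPM in their controls, without overlap. SOX10 averaged 618 CPM in the knockdown and 806 CPM in its controls, and ERBB3 590 and 999 CPM. Of the 11 tested 2 fell, where 3.58% of all genes did, S100B (−1.11, edgeR adjusted p = 0.00924) and ERBB3 (−0.76, edgeR adjusted p = 0.0211). Neither passed without either control of experiment 1. In the MYC-labelled libraries the melanoma sum was 1490 and 1470 CPM and in their controls 1600 CPM each. ERBB3 was lower there, at a mean of 404 CPM against 553 CPM, and SOX10 higher, at 943 CPM against 828 CPM. Of the 11 tested 1 fell, where 0.493% of all genes passed in either direction, the neurotrophin receptor NGFR (−1.99, edgeR adjusted p = 0.0289, and 0.245 to 0.344 with any 1 library of experiment 2 left out). Of the tested endothelial markers 0 passed with edgeR in either knockdown, with 0 at an unadjusted p under 0.05 after PHF10 knockdown and 2 in the MYC-labelled libraries, where DESeq2 and limma-voom called 1 each (3.91% and 1.14% of all genes). Of the 2 tested adipocyte markers CIDEC, a lipid droplet protein gene, fell after PHF10 knockdown, where 3.58% of all genes did (−2.19, edgeR adjusted p = 0.0336, at most 2.51 CPM, and not past the threshold without either control of experiment 1). The adipocyte sum was 9.70 and 7.66 CPM in the MYC-labelled libraries and 11.0 and 11.3 CPM in their controls. In experiment 1 the melanoma sum did not overlap between the groups, where 27.2% of all single genes did not. In experiment 2 none of the 4 sums overlapped, where 69.7% of all single genes did not. The part of these sums in the values of the coat genes was not tested.

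Over the 10 libraries the 5 genes with the pattern most like CAV1, by Pearson's r of log2 CPM among 11283 tested genes with a mean of at least 5 CPM, were ELOVL6 (0.98), LINP1 (0.97), C1orf226 (0.96), CABLES1 (0.96) and KIF1A (0.95). ELOVL6, a fatty acid elongase, was at 61.6, 57.2, 60.0 and 64.8 CPM in the PHF10 knockdown libraries and at 55.3 and 56.6 CPM in their controls. It was at 42.4 and 40.6 CPM in the MYC-labelled libraries and at 53.4 and 56.7 CPM in their controls, so that, as for CAV1, all PHF10 knockdown libraries lay above all controls and both MYC-labelled libraries below them, over a smaller range. LINP1, a long noncoding RNA, had log2 fold changes of 1.28 after PHF10 knockdown and −1.44 in the MYC-labelled libraries. CAV1 was chosen for its opposite responses, so like responses of the genes ranked closest to it follow from the ranking. None of the other coat genes ranked close to these, with r of 0.66 for CAVIN1 (rank 1029), 0.64 for EHD2 (rank 1104), 0.10 for CAV2 (rank 4451) and −0.52 for CAVIN3 (rank 8562).
After the mean of its own group was taken from each library, which leaves the variation between replicates, the genes most like CAV1 were CCL2 (0.99), LPCAT2 (0.99), SHROOM2 (0.98), CCDC78 (0.98) and FDX1 (0.98). CAVIN3 then had an r of 0.90 (rank 183), CAVIN1 of 0.53 (rank 3068), EHD2 of −0.31 (rank 7897) and CAV2 of −0.82 (rank 10804). These values describe 10 libraries that share depth and experiment, most of the variation between replicates lay in experiment 1, and no p is attached to them.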

How the data were processed

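The members and all gene lists were chosen with earlier results of these data known. Poly(A) RNA was sequenced as single reads from a directional kit, per the labels' protocols. Per the submitters' processing notes, cutadapt and STAR were used with GRCh38.p13 (hg38), and the sources used here give neither their versions nor the annotation. The authors deposited raw read counts per Ensembl gene ID for each of the 10 libraries, in an unstranded and 2 stranded columns. The opposite-strand column was used, since it had the larger share of gene reads throughout, with 5.265% to 5.549% of stranded gene reads on the same strand. Lines that name no gene, 19.06% to 23.6% of all reads, were left out of the totals.

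A gene name table supplied 60295 symbols and GENCODE release 29 another 309, and 19 IDs had none. All 195 symbols of 14 lists matched; 2 genes of the cholesterol list are not reported here and stand in none of its counts. Counts were fitted with edgeR 4.0.16 (R 4.3.3) by robust quasi-likelihood with TMM factors and filterByExpr, as 4 group means with 6 residual degrees of freedom, and adjusted by Benjamini-Hochberg over 18450 genes with a threshold of 0.05. CPM are counts over TMM-scaled library sizes; levels per kb use the merged exon length of GENCODE release 29. Unless another is named, log2 fold changes, SE and adjusted p are from this fit, and counts of genes are at adjusted p. The fit was tested on simulated counts. Alternatives were DESeq2 1.42.0, limma-voom 3.58.1, other factors and filters, the unstranded column, each experiment alone, a replicate block, a term for the interferon response and each library left out. Genes named from lists were those with the smallest unadjusted p in each knockdown comparison, at most 3 a list, with all tested genes of the caveolar and chromosome 7 lists; the genes most like CAV1 needed a mean of 5 CPM.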

Additional observations from a re-analysis of the deposited data

Results flagged for a closer look

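CAV1 lay above both controls in all 4 PHF10 knockdown libraries and below both controls in the MYC-labelled libraries, and its log2 fold changes differed by 2.17. That difference was not tested, because the gene was chosen for it.

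Of the 176 tested genes of all lists, CAV1 included, 8 lay on opposite sides of their controls with no overlap in both experiments (4.55%), and 5.09% of all genes did. Among the 68 genes that the naming rule took there were 4 beside CAV1, and the difference of the 2 log2 fold changes did not pass the threshold for any of them with edgeR. It was 0.60 for DOCK5 (adjusted p = 0.313), −0.90 for EPN2 (adjusted p = 0.151), 0.76 for LATS2 (adjusted p = 0.153) and −0.78 for S100A1 (adjusted p = 0.2). For PHF10 itself the difference of −1.21 passed (edgeR adjusted p = 0.0221), and it did not pass with a replicate block or with any one control or MYC-labelled library left out (adjusted p = 0.0719 to 0.215).

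A single library stood far from the other PHF10 knockdown libraries for 2 of the 68 genes screened, and chance alone flags about 1 in 20. TFEC, a neighbour of CAV1, was at 2.73 CPM in replicate 1 and at 0.77 to 0.825 CPM in the others. DAB2, an endocytic adaptor, was at 39.1 CPM in replicate 4 and at 34.9 to 35.2 CPM in the others.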

How the results depend on the processing

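CAV1 kept its direction after either knockdown under all 20 alternatives, with log2 fold changes of 0.47 to 0.75 after PHF10 knockdown and −1.53 to −1.48 in the MYC-labelled libraries. CAV1 was chosen for these directions and the alternatives reuse the same libraries, so the kept direction is a description and no support. CAV2 did not pass the threshold in any comparison or alternative. The number of genes past the threshold after PHF10 knockdown, 1169, was 2180 with DESeq2, 2372 with no filter, 50 with experiment 1 alone, 2467 with the interferon term, and 214 to 1387 with 1 library left out. In the MYC-labelled libraries, 91 became 722 with DESeq2, 211 with limma-voom, 911 with no filter, 7781 with experiment 2 alone, 558 with the interferon term, and 0 to 231 with 1 library left out. For the difference, 71 became 633 with DESeq2, 918 with no filter, 489 with the interferon term and 1 to 140 with 1 library left out. For the control groups, 2702 became 4540 with the interferon term and 554 to 3428 with 1 library left out. Leaving out a library gave fewer calls for some libraries and more for others, always with fewer samples in the fit. The larger number of calls with experiment 2 alone came with the smaller spread of that experiment. CAVIN1 passed in the MYC-labelled libraries under 6 of the 20 alternatives. Among these were DESeq2 (−0.73), limma-voom (−0.73), no filter (−0.73), experiment 2 alone (−0.72) and the interferon term (−0.73). With 1 library left out its log2 fold change there was −0.78 to −0.68, and it did not pass in every such fit. CAVIN1 also passed in its difference with DESeq2 (0.77) and the interferon term (0.76), and between controls with both (0.38 and 0.38). After PHF10 knockdown it was −0.058 to 0.13 with 1 library left out. CAVIN3 after PHF10 knockdown was −0.077 to 0.46 with 1 library left out, and its difference was −0.21 to 0.32, and −0.006 with limma-voom. CAVIN3 in the MYC-labelled libraries passed with experiment 2 alone (0.15). Its call between controls was lost with upper-quartile factors (0.94) and the stricter filter (1.02). The log2 fold change of CAVIN3 between controls was 0.82 to 1.35 with 1 library left out. EHD2 in the MYC-labelled libraries was 0.003 with upper-quartile factors and −0.14 to 0.10 with 1 library left out. The calls of CIDEC, CLTCL1, ERBB3 and RBMS3 after PHF10 knockdown were also lost with single libraries of experiment 2 left out, and those of CIDEC and RBMS3 with single knockdown libraries. No cause of these changes was tested. Of the 480 list counts under alternatives 106 moved, and of the 480 list medians 37.

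Deviations of same-numbered replicates correlated at r = 0.484 and −0.297 in experiment 1 and −0.031 in experiment 2, where a group of 2 gives mirrored deviations, so these are not independent pairs. The labels give no shared culture or day and not every r was above 0.1, so the numbers were not taken to pair the libraries. With a replicate block 0 genes passed in the MYC-labelled libraries, 1 for the difference and 1424 between controls. CAV1 differed by 1.97 between the knockdowns, CAVIN1 was −0.076 and CAVIN3 −0.11 after PHF10 knockdown, the CAVIN3 difference was −0.25, and CAVIN3 between controls was 1.02 and not past the threshold. With 2 libraries in 3 of the 4 groups, the intervals of the coat genes that did not pass stay wide.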
